A study of Mus musculus with 3 samples.

Results

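Within CD8 cluster 4, a group of cells that the authors labelled CD8 T cells in the sciatic nerve, cells that carried transcripts of the division machinery were set against cells of the same cluster that carried none. A cell was counted as dividing when it held 2 or more unique molecular identifiers (UMIs, each standing for 1 captured transcript molecule) summed over Mki67, Top2a, Birc5 and Cdk1. It was counted as resting when it held 0. Of 1054 cells in the cluster, out of 11640 in all, 225 were dividing (160, 20 and 45 in libraries 1, 2 and 3) and 654 were resting (312, 162 and 180). The other 175 cells held exactly 1 UMI and entered neither group. "Dividing" and "resting" are used here for these classes of transcript count and not for an observed cell division.

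The cells came from the CD45+ (leukocyte) fraction of sciatic nerves of NOD.AIRE GW/+ mice aged 15 weeks, a strain prone to autoimmunity in which Aire, needed for tissue antigens to be shown in the thymus, is altered on 1 chromosome copy. Dividing and resting cells come from the same nerves and so share this genotype, and no wild-type nerve enters here. Libraries 1 and 2 were sequenced from the 3′ end of transcripts and library 3 from the 5′ end. The labels do not say whether the libraries are separate animals, so p-values measure the spread between these 3 libraries. Barcodes shared between libraries number 6 for libraries 1 and 2 and 0 for the other pairs, with 0 within the cluster.

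A T cell that meets its antigen leaves the resting state, copies its DNA in S phase and then separates the copies in mitosis. Genes of replication and of mitosis are switched on in turn. E2F transcription factors drive many replication genes in mammals, and a promoter element called the cell cycle genes homology region (CHR), often near CCAAT boxes, marks many of the mitotic genes. Mki67 encodes the Ki-67 protein that coats mitotic chromosomes, Top2a a topoisomerase that untangles DNA, Birc5 the survivin subunit of the chromosomal passenger complex and Cdk1 the kinase that drives entry into mitosis.

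The promoters of the mitotic and replication genes with the smallest adjusted p are shown because these genes differed most clearly between the states. Windows of 250 bases before to 50 bases after the transcription start were taken from RefSeq (GRCm38.p6). Ube2c lies on the plus strand at chr2:164769679-164769978, Cenpf on the minus strand at chr1:189688037-189688336 and Ccnb2 on the minus strand at chr9:70421505-70421804. Rrm2 lies on the plus strand at chr12:24708004-24708303. Pola1, on the minus strand at chrX:93632106-93632405, was added for holding E2F motifs. Capitals mark matches on either strand. The CHR was searched as TTTGAA. The box named for its letters was searched as CCAAT. For E2F factors a first spelling, GCGGGAA, was searched. A further E2F spelling that was searched is GCGCGAA.
Ube2c: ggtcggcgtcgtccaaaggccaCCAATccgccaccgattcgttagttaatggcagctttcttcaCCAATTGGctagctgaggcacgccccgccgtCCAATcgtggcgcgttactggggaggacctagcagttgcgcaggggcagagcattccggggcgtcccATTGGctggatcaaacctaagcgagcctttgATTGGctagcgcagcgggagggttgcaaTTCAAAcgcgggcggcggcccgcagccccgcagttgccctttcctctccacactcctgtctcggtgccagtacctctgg
Cenpf: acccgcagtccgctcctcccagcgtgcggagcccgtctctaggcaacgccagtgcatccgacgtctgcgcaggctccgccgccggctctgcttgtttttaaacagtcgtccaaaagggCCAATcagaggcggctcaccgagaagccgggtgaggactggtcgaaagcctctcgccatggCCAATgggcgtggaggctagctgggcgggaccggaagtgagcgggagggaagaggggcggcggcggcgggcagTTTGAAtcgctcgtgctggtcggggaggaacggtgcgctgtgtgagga
Ccnb2: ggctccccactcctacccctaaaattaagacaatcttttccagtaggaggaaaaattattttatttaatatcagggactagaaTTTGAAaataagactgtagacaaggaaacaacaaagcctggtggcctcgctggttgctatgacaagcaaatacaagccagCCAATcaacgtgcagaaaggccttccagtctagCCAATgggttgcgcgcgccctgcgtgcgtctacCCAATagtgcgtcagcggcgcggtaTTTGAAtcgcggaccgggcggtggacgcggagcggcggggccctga
Rrm2: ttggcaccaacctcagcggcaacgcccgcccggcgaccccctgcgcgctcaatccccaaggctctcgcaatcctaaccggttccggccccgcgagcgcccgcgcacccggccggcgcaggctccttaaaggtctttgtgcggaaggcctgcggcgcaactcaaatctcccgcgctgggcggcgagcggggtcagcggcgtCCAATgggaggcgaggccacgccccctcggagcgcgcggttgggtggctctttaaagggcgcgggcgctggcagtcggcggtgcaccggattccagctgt
Pola1: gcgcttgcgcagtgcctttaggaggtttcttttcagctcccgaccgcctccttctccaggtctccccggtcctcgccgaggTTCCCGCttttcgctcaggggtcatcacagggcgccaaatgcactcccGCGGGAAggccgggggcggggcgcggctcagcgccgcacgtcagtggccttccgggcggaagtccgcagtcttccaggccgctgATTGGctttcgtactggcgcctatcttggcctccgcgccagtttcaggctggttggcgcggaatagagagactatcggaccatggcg

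Of 53 windows for 50 of the 59 genes of a mitosis and spindle list, 37 (69.8%) held TTTGAA, against 3 of 37 windows (8.11%) for replication genes, 31.4% of windows for chromatin genes, 28.6% for cytotoxic genes and 17.9% of all 32851 windows. CCAAT was found in 73.6% of the mitosis windows, 56.8% of the replication windows and 37.4% of all windows. GCGGGAA was in 16 of 37 replication windows (43.2%), 3 of 53 mitosis windows (5.66%) and 4.60% of all. GCGCGAA was in 8 of 37 replication windows (21.6%), 1 of 53 mitosis windows (1.89%) and 1.59% of all. CCAAT can overlap its own reverse complement, as it does in Ube2c, and these letters were chosen after several spellings had been tried. The window of Tk1, another of the replication genes with the smallest adjusted p, held 0 of these motifs.

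The 4 genes of the rule separated the cells by construction and are given without a test. Mki67 had 677.9, 257 and 891 CPM (UMIs per 1e6 UMIs of the sum, unscaled) in dividing cells of libraries 1, 2 and 3, Top2a 781, 193 and 525, Birc5 318, 244 and 163, and Cdk1 114, 109 and 87.5. All 4 are at 0 in resting cells by the rule. The median dividing cell held 9, 2 and 5 of their UMIs. Library 2 is thin: 9 of its 20 dividing cells held 3 or more.

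The summed level of the mitosis list, which leaves out the 4 genes, was 2165, 1309 and 1963 CPM in cells with 2 UMIs (31, 11 and 16 cells in libraries 1, 2 and 3). It was 1689.8, 1520.1 and 1747 CPM in cells with 1 UMI and 1577, 1423 and 1735 CPM in resting cells. In library 2 the mitosis level of cells with 2 UMIs thus lay below that of resting cells. In cells with 6 or more UMIs (101, 6 and 22 cells) it reached 8176, 11078 and 12132 CPM. The replication list was at 1351, 1107 and 1583 CPM in cells with 2 UMIs and 858, 754 and 1165 CPM in resting cells, higher in each library. Cells with 1 UMI were at 1494, 1149 and 1170 CPM, above cells with 2 UMIs in libraries 1 and 2.

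**Figure D1:**
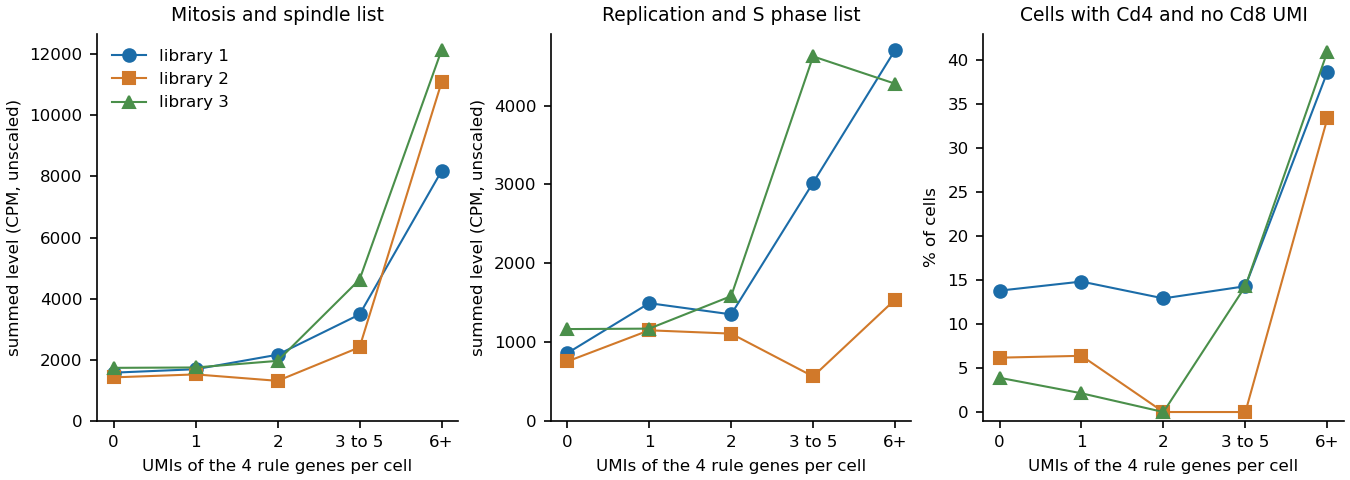
Summed level of the mitosis list (left) and the replication list (middle), in unscaled CPM, and the percent of cells with Cd4 and no Cd8 UMI (right), by the number of UMIs of the 4 rule genes in a cell, with 1 line per library. The mitosis level is at most 2165 CPM up to 2 UMIs and lies between 8176 and 12132 CPM at 6 or more UMIs, where 33.3% to 40.9% of cells hold Cd4 and no Cd8 UMIs.

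Dividing cells were also deeper. Median UMIs per cell were 7012.5, 7750 and 5633 in dividing cells and 3365, 5147 and 5394.5 in resting cells of libraries 1, 2 and 3. Cells with 2500 genes or more made up 39.4%, 40% and 33.3% of dividing cells and 1.60%, 6.17% and 25% of resting cells. No deposited cell has more than 2997 genes, so cells above that number are not among those analysed here. A fit with fewer, deeper resting cells, drawn to match dividing cells on UMIs, is given below for some of the genes whose call it ends. That draw fell short in library 1, where median UMIs per cell stayed at 7012.5 in dividing cells and 4537 in the drawn resting cells.

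The label CD8 held for fewer of the dividing cells than of the resting cells. Cells with a Cd8a or Cd8b1 UMI and no Cd4 UMI, called Cd8-read here, were 55%, 75% and 64.4% of dividing cells and 76.6%, 87.0% and 86.7% of resting cells. Cells with Cd4 and no Cd8 UMI were 29.4%, 10% and 22.2% of dividing cells and 13.8%, 6.17% and 3.89% of resting cells. The share was higher in dividing cells in 3 of 3 libraries, and 3 pairs allow no exact two-sided p below 0.25. In B cells, which should lack Cd4, 3.32%, 2.25% and 8.92% of cells held a Cd4 UMI at median depths of 2869.5, 4445 and 4198 UMIs, against 31.3%, 10% and 31.1% of dividing cells and 16.7%, 6.79% and 11.1% of resting cells.

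Depth alone raises the chance of reading Cd4, so 2 measures that do not depend on it were added. Cd4 made up 11.2%, 1.74% and 7.11% of the Cd4, Cd8a and Cd8b1 UMIs of dividing cells, against 6.50%, 1.47% and 1.84% in resting cells. Exact binomial 95% intervals, which cover counting error only, overlap in library 2 and do not overlap in libraries 1 and 3. With every cell thinned to 1000 UMIs, leaving out 5 resting cells, cells with Cd4 and no Cd8 UMI were 9.38%, 5% and 8.89% of dividing cells and 6.80%, 3.70% and 2.25% of resting cells. The unscaled Cd4 level was 82.5, 19.3 and 139 CPM in dividing cells and 81.6, 23.5 and 43.9 CPM in resting cells. The states lay close in libraries 1 and 2, and Cd4 was not called (log2 fold change 0.50, −0.03 without library 3, edgeR's quasi-likelihood test, adjusted p = 0.448).

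**Figure D2:**
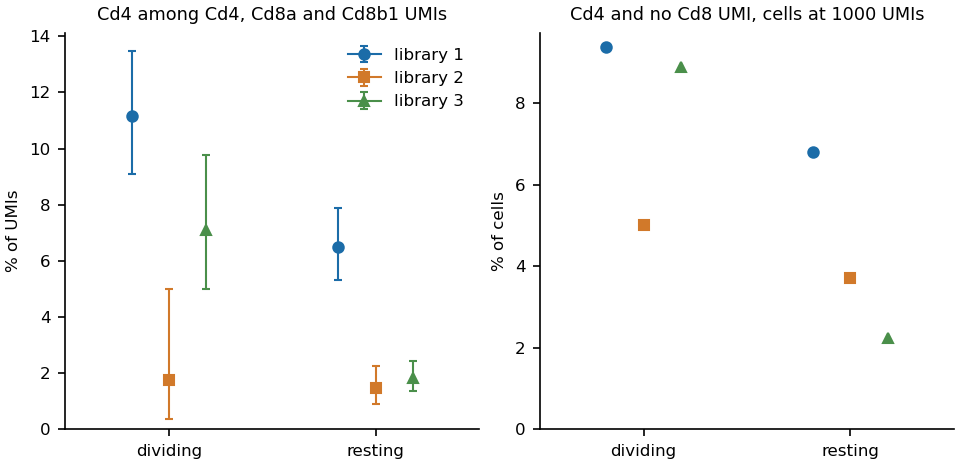
Percent of Cd4 among Cd4, Cd8a and Cd8b1 UMIs with exact binomial 95% intervals (left), and percent of cells with Cd4 and no Cd8 UMI after thinning each cell to 1000 UMIs (right), in dividing and resting cells of each library. Dividing cells lie higher in each of the 3 libraries, by little in library 2.

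Regulatory and helper T cell genes were higher in dividing cells. Foxp3, the lineage factor of regulatory T cells, had 46.3, 19.5 and 46.2 CPM in dividing cells, against 8.40, 1.21 and 2.85 CPM in resting cells, with CPM of single genes from here on scaled by edgeR's TMM factors and summed levels of lists left unscaled. The groups do not overlap, but with 13 UMIs in resting cells Foxp3 passed the filter on low counts through the dividing group, so that its fit is a description (log2 fold change 3.04 ± 0.49 SE, edgeR's quasi-likelihood test, adjusted p = 3.95e-08). Among dividing cells its UMIs lay in 19 of 59 with Cd4 and no Cd8 UMI and in 2 of 132 Cd8-read cells. They also lay in 9 of 27 dividing cells with neither and in 2 of 7 with both. Among resting cells they lay in 1 of 60 with Cd4 and no Cd8 UMI and in 7 of 536 Cd8-read cells. The others were 2 of 35 resting cells with neither and 1 of 23 with both.

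Izumo1r, which encodes folate receptor 4 of regulatory and follicular helper T cells, had 129.5, 71.4 and 149 CPM in dividing cells and 28.0, 23.1 and 48.5 CPM in resting cells (1.86 ± 0.29, adjusted p = 1.03e-08 by edgeR). Tnfsf8, the CD30 ligand, had 134, 58.4 and 96.0 CPM in dividing cells and 56.0, 14.6 and 6.65 CPM in resting cells (2.01 ± 0.31, adjusted p = 8.49e-09 by edgeR). Neither gene overlapped between the states. Izumo1r kept its call whichever library was left out. Tnfsf8 and Foxp3 did so too, but with all libraries each passed the filter only with the dividing group. Tnfsf8 had 60, 12 and 7 resting UMIs and Foxp3 9, 1 and 3, so these fits remain a description and add no support. Cd40lg (2.10) was also called, on 45 dividing and 20 resting UMIs, with 0 in both states of library 2. It was tested in no fit that left out library 1 or 3. Its fit is a description as well, since it too passed the filter only with the dividing group. The costimulatory receptor gene Tnfrsf4 (1.11) lost its call without library 3 (0.73), and Ikzf2 (1.06), which encodes the factor Helios, without library 2 (0.94) or 3 (0.92).

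Of 6 CD4 helper markers tested, 3 were higher and 0 lower in dividing cells, counting Tnfsf8 and Cd40lg, whose fits are descriptions. Of 5 regulatory T cell markers tested 4 were higher and 0 lower, counting Foxp3, whose fit is a description. Over all 7361 genes tested, 4.21% were higher and 1.49% lower. The 5 regulatory markers leave out Il2ra (86 dividing and 22 resting UMIs), which did not pass the filter on low counts. The summed unscaled level of the 6 helper markers was 424 to 954 CPM in dividing cells and 348 to 426 CPM in resting cells. For the regulatory markers it was 1048 to 2425 CPM in dividing cells and 796 to 1099.7 CPM in resting cells. In Cd8-read cells 0 of the 3 helper and 0 of the 4 regulatory markers tested were called, with medians of 0.13 and −0.10, which the choice of cells without a Cd4 UMI partly fixes.

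Cd8a, the CD8 alpha chain, had 417, 708 and 1074 CPM in dividing cells and 799.8, 1139 and 1508 CPM in resting cells. It was lower in dividing cells in each library (−0.71 ± 0.20, adjusted p = 0.00928 by edgeR), while the ranges of the states overlap. The beta chain gene Cd8b1 had 291, 389 and 551 CPM in dividing cells and 502, 570.3 and 829 CPM in resting cells (−0.65 ± 0.21, adjusted p = 0.0326 by edgeR). The calls ended for Cd8a without library 1 (−0.59) or 2 (−0.73) and for Cd8b1 without library 1 (−0.58), 2 (−0.70) or 3 (−0.65). In Cd8-read cells, which were chosen on these genes, the values were −0.24 and −0.18, not called. Against drawn resting cells Cd8a (−0.77) was called and Cd8b1 (−0.60) was not.

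**Figure D3:**
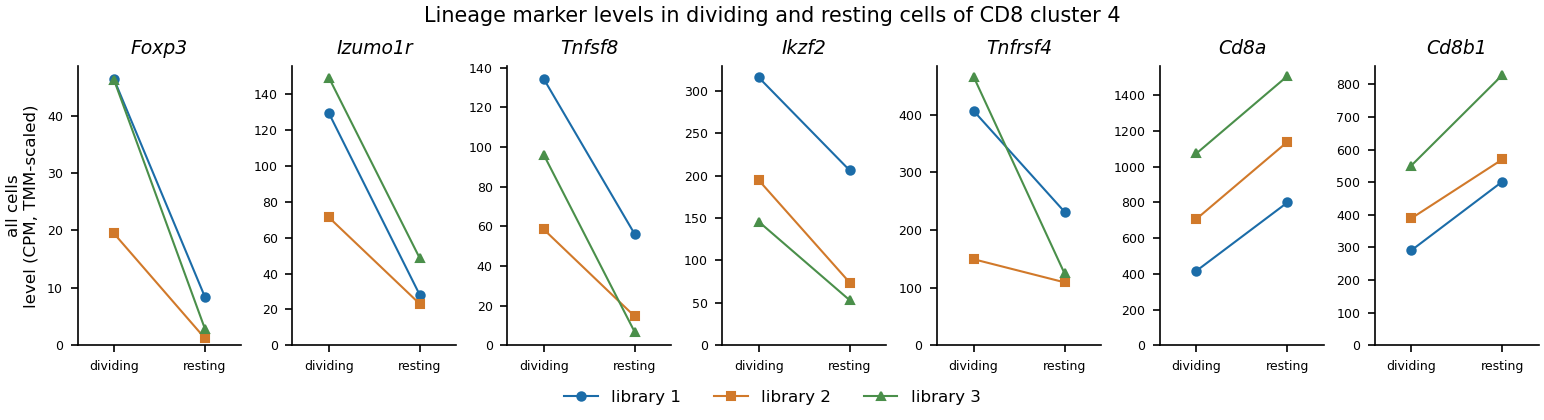
Level (TMM-scaled CPM) of 5 regulatory or helper T cell genes and of the CD8 chain genes in dividing (left of each panel) and resting cells, with 1 line per library. The 5 lines of the first group fall towards resting cells in each of the 3 libraries and those of Cd8a and Cd8b1 climb.

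Markers of other lineages were few. Summed macrophage markers, unscaled, were 179, 0 and 3.98 CPM in dividing cells and 47.1, 11.2 and 8.59 CPM in resting cells. With all libraries 0 of the 7 passed the filter. In library 1 Lyz2 had 88 dividing and 20 resting UMIs, and C1qa 48 and 11. Lyz2 was called higher without library 2 (1.77) or 3 (1.99), and C1qa without library 2 (1.87). C1qb was not called in these fits (1.53 and 1.37). Trdc, the delta chain constant region, had 27.4, 162 and 0 CPM in dividing cells and 2.80, 55.8 and 3.80 CPM in resting cells, and its call (1.77, adjusted p = 0.00026 by edgeR) ended without library 1 (1.31). B cell, plasma cell, NK cell, Schwann cell and stromal lists had 0 called genes in either direction, and the dendritic and erythroid lists had 0 genes that passed the filter, with Clec9a and Cd209a at 0 UMIs in both states. The part of other cell types in the results below was not tested beyond the Cd8-read values given with them.

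Over all 7361 genes that passed the filter, 420 (5.71%) were called, 310 (4.21%) higher and 110 (1.49%) lower in dividing cells at an adjusted p under 0.05 by edgeR's quasi-likelihood test with the library as a block, and the median log2 fold change was −0.04. Scaled by library totals alone the split was 326 higher and 52 lower. Without the library block 114 were higher and 0 lower, so each lower call below rests on comparing the states within a library. Of the 310, 105 belong to the lists of replication, mitosis and chromatin. Counts of called genes in the other lists below stand beside the shares of 4.21% higher and 1.49% lower. The filter lets a gene pass on the sums of either state alone, and the fit of such a gene is a description. Within the 132 dividing and 536 resting Cd8-read cells, 6469 genes were tested and 91 (1.41%) were called, 78 (1.21%) higher and 13 (0.201%) lower. The Cd8-read setting was added after the data had been seen, and it holds fewer cells, so a call lost there does not show that a gene is equal. Bulk sums cannot tell fewer cells with a transcript from less of it per cell.

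Genes of the division machinery moved with the 4 genes that chose the cells, so their differences describe the selection and are read as nothing more. Of the mitosis list, 45 of 47 tested genes were higher and 0 lower (median 3.97). Of 38 replication genes, 31 were tested and 27 were higher (median 1.82), and of 41 chromatin genes present, 37 were tested and 33 were higher (median 1.52). Genes read almost only in dividing cells passed the filter because they were high there, so these counts are not set against the background. In Cd8-read cells 14 of 20, 14 of 23 and 18 of 32 were called higher, 0 lower.

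Ube2c, the ubiquitin-conjugating enzyme that works with the anaphase-promoting complex, had 248, 247 and 259.6 CPM in dividing cells and 6.53, 3.64 and 4.75 CPM in resting cells. Ccnb2, cyclin B2, had 164, 182 and 192 CPM in dividing cells and 7.47, 1.21 and 1.90 CPM in resting cells. Cenpf, a kinetochore protein gene, had 202, 169 and 185 CPM in dividing cells and 5.60, 1.21 and 0.951 CPM in resting cells. All 3 genes were about level across libraries in dividing cells, but not in Cd8-read dividing cells, of which library 2 has 15. There Ube2c had 253, 17.7 and 111 CPM, Cenpf 176, 0 and 133 CPM and Ccnb2 171, 88.3 and 172 CPM. The Cd8-read dividing group of library 2 was thus low in Ube2c and Cenpf wherever it is used here. Among replication genes, Rrm2, the small subunit of ribonucleotide reductase, had 213, 26.0 and 178 CPM in dividing cells and 10.3, 3.64 and 9.51 CPM in resting cells. Tyms, thymidylate synthase, had 189, 32.5 and 64.0 CPM in dividing cells and 14.0, 18.2 and 12.4 CPM in resting cells. For both, library 2 is the lowest of the dividing groups by far. The histone gene Hist1h1b also varied, at 903, 175 and 128 CPM in dividing cells and 11.2, 2.43 and 9.51 CPM in resting cells.

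The authors' cell cycle phase labels, whose scores may use some of the same genes, gave G2M to 59.4%, 45% and 51.1% of dividing cells and to 10.3%, 6.17% and 2.78% of resting cells. They also gave S to 47.1%, 42.0% and 52.8% of resting cells, and 0 of the rule's UMIs and an unscaled resting replication level of 754 to 1165 CPM stand beside that, so no cycling is read from the phase labels.

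Outside the 3 lists, the called genes with the highest fold included further parts of the division machinery. Neil3, a DNA glycosylase, had 22.7, 32.5 and 53.4 CPM in dividing cells and 0 UMIs in resting cells, and was at least 29.7-fold higher. The centrosomal kinase gene Nek2 had 22.7, 45.4 and 39.1 CPM in dividing cells, also with 0 in resting cells, and was at least 28.3-fold higher. Shcbp1, Stil (centriole duplication) and Kif14 (a kinesin of cytokinesis) were likewise at 0 in resting cells and at least 30.4-fold, 23.6-fold and 14.8-fold higher. These bounds set the resting group at 3 UMIs in all. Esco2, Pimreg, Troap and Sapcd2 had 1 resting UMI each. Pimreg, a gene of mitotic cells, had 15, 5 and 9 UMIs in dividing cells and 0, 0 and 1 in resting cells, a ratio of 58.7 with a 95% counting interval of 9.73 to 2397. Stil, Kif14, Esco2, Troap and Sapcd2 were not tested without library 1, which held 96 of the 103 dividing UMIs of Esco2.

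Selenoh and Fkbp2 were picked after their values were seen, as the only genes of 32 outside the 3 lists that were higher in Cd8-read cells and kept the call with each library left out. Selenoh, a nucleolar selenoprotein, had 398, 422 and 209.9 CPM in dividing cells and 94.3, 67.9 and 67.5 CPM in resting cells, with no overlap (2.11 ± 0.23, adjusted p = 2.36e-17 by edgeR). Fkbp2, an endoplasmic reticulum prolyl isomerase, had 204, 227 and 128 CPM in dividing cells and 43.9, 29.1 and 41.8 CPM in resting cells (2.22 ± 0.26, adjusted p = 5.96e-15 by edgeR). In Cd8-read cells the fold changes were 1.85 and 1.90.

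Most brakes on the cycle were not called, and those called went both ways. Of 31 tested genes of a brake and G1 list, 3 were higher and 2 lower, with a median of −0.20. The higher ones include Cdkn3 and Rbl1, whose fits are descriptions. Over all 7361 genes tested, 4.21% were higher and 1.49% lower. Cdkn3, a phosphatase of cyclin-dependent kinases, had 69 dividing and 3 resting UMIs, a ratio of 46.5 with a counting interval of 15.3 to 231. It passed the filter on low counts through the dividing group, so that its difference is a description. Rbl1 (1.55), which encodes the pocket protein p107, had 10, 8 and 19 resting UMIs in libraries 1, 2 and 3. Rbl1 passed the filter through the dividing group as well, so that its fit is also a description. It stood at 1.42 without library 1 and 1.45 without library 3. Cdkn2c (0.99), an inhibitor of Cdk4 and Cdk6, lost its call without library 1 (1.00) or 3 (0.75).

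Btg1, an antiproliferative gene of quiescent lymphocytes, had 959, 1305 and 982 CPM in dividing cells and 2221, 1980.1 and 1672 CPM in resting cells. The states do not overlap and Btg1 fell (−0.87 ± 0.20, adjusted p = 0.000377 by edgeR). Its relative Btg2 had 301, 357 and 327 CPM in dividing cells and 559, 641 and 584 CPM in resting cells, also without overlap (−0.86 ± 0.21, adjusted p = 0.00131 by edgeR). Without library 1 or 2 the Btg1 call ended (−0.70 and −1.01), and without library 2 that of Btg2 (−0.88). In Cd8-read cells Btg1 remained called at −0.74 (adjusted p = 0.0258), though in no fit that left out a library (−0.66, −0.88 and −0.66), and Btg2 was at −0.69 (adjusted p = 0.124). With drawn resting cells the calls of Btg1 (−0.58, adjusted p = 0.0588) and Btg2 (−0.67, adjusted p = 0.0733) ended too. Cdkn1a (0.78), Cdkn1b (−0.27), Ccnd2 (−0.32), Ccnd3 (−0.25) and Myc (0.34) were not called.

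Chemokine genes were the list with the lowest median, −1.19 over 6 tested genes, of which 5 fell and 0 rose. The median and counts include Ccl9, whose fit is a description. Ccl4, an inflammatory chemokine gene, had 714, 1129 and 765 CPM in dividing cells and 2006, 1585 and 2882 CPM in resting cells. The highest dividing library lies below the lowest resting library (−1.31 ± 0.20, adjusted p = 6.54e-09 by edgeR), and the call held with each library left out. Ccl5, another inflammatory chemokine gene, had 6635, 33545 and 11645 CPM in dividing cells and 27352, 45178 and 27667 CPM in resting cells. Here the states overlap through library 2, while each library was lower in dividing cells (−1.24 ± 0.21, adjusted p = 2.82e-07 by edgeR). The Ccl5 call ended without library 1 (−0.85) or 2 (−1.66).

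Xcl1, which encodes a chemokine for cross-presenting dendritic cells, had 314, 195 and 619 CPM in dividing cells and 740.1, 820.2 and 812 CPM in resting cells, with no overlap (−1.15 ± 0.21, adjusted p = 2.99e-06 by edgeR), but not called without library 2 (−0.83). In Cd8-read cells Xcl1 was at −0.60, not called. It then had 507, 132 and 967 CPM in dividing cells and 860, 748 and 583 CPM in resting cells, so library 3 went the other way. Its Cd8-read values without libraries 1, 2 and 3 were −0.45, −0.05 and −1.32, only the last called. Ccl3 fell by 0.82 on the log2 scale (adjusted p = 0.00226 by edgeR), was not called without library 1 (−0.78) or 3 (−0.31), and stood at −0.16 in Cd8-read cells. Ccl9 had 3 UMIs in dividing cells against 99 in resting cells, a ratio of 0.0613 with a counting interval of 0.0124 to 0.184. It passed the filter through the resting group, so that its fit is a description, at −2.26 without library 1. In Cd8-read cells the chemokine median was −0.67. Ccl4 (−0.83, adjusted p = 0.0157) and Ccl5 (−0.73, adjusted p = 0.0227) remained called. Ccl4 then had 1139.6, 1325 and 851 CPM in dividing cells and 1762, 1627 and 2544 CPM in resting cells. Without libraries 1, 2 and 3 its Cd8-read values were −0.96, −1.11 and −0.45, called without library 1 alone, and those of Ccl5 were −0.53, −1.08 and −0.58, none called.

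**Figure D4:**
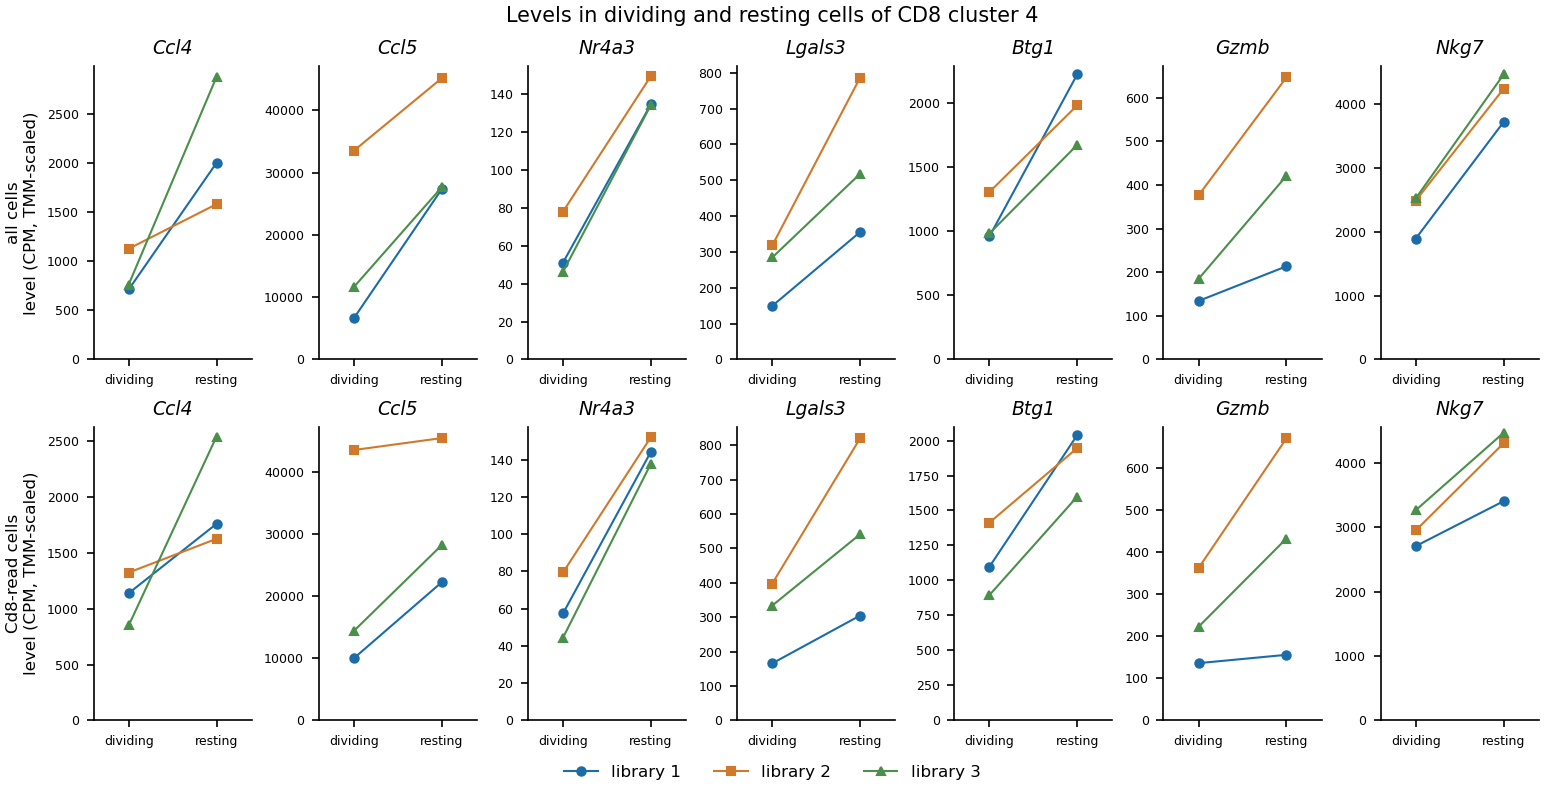
Level (TMM-scaled CPM) of 7 genes in dividing (left of each panel) and resting cells, in all cells of the cluster (top) and in cells with Cd8 and no Cd4 UMI (bottom), with 1 line per library. Each line climbs towards resting cells, and the slopes of Ccl4, Ccl5 and Nkg7 are less steep in the bottom row than in the top row in library 1.

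Cytotoxic genes were lower or not called. Of 24 tested, 0 rose and 5 fell (median −0.51), and in Cd8-read cells 0 of 24 were called and the median was −0.19. Gzmb, granzyme B, had 134, 376 and 185 CPM in dividing cells and 214, 647 and 421 CPM in resting cells. Each library was lower in dividing cells but the states overlap (−0.87 ± 0.22, adjusted p = 0.00189 by edgeR). Nkg7, a granule membrane protein gene, had 1892, 2486 and 2522 CPM in dividing cells and 3715, 4236 and 4459 CPM in resting cells, with no overlap (−0.86 ± 0.20, adjusted p = 0.000448 by edgeR).

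The receptor genes Klrd1 (CD94, −0.84), Klrk1 (NKG2D, −0.70) and Klrc1 (NKG2A, −0.68) also fell. None of the 5 kept its call in every fit that left out a library. Without library 1 the calls of Nkg7 (−0.81), Klrd1 (−0.72), Klrk1 (−0.68) and Klrc1 (−0.36) ended. Without library 2 all 5 ended (Gzmb −0.93, Nkg7 −0.91, Klrd1 −0.83, Klrk1 −0.52, Klrc1 −0.75), and without library 3 those of Gzmb (−0.69) and Klrk1 (−0.87). In Cd8-read cells Gzmb stood at −0.67 and Nkg7 at −0.44, Klrd1 at −0.32 and Klrc1 at −0.10. With drawn resting cells Nkg7 (−0.86) was called and Gzmb (−0.55), Klrd1 (−0.67) and Klrc1 (−0.54) were not.

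Perforin (Prf1, −0.56), Gzmk (−0.28), Ifng (−0.43) and Tnf (0.21) were not called. Gzma went opposite ways, at 61.5, 0 and 10.7 CPM in dividing cells and 14.0, 23.1 and 146 CPM in resting cells. It was not called with 3 libraries (−0.38), but was without library 1 (−3.89, adjusted p = 3.26e-06 by edgeR), and stood at 1.25 without library 3.

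Of 24 tested genes of checkpoint receptors and exhaustion, 1 was higher and 7 lower (median −0.37), and in Cd8-read cells 0 of 24 were called (median −0.29). Nr4a2, an orphan nuclear receptor gene induced by antigen receptor signals, had 471, 623 and 569 CPM in dividing cells and 1237, 975 and 1036 CPM in resting cells, with no overlap (−0.99 ± 0.20, adjusted p = 4.8e-05 by edgeR). Without library 1 it was at −0.77, not called. Pdcd1, the PD-1 gene, had 278, 499.8 and 914 CPM in dividing cells and 460.1, 954 and 1098 CPM in resting cells, with overlap (−0.63 ± 0.20, adjusted p = 0.0372 by edgeR). Havcr2, the TIM-3 gene, had 97.4, 208 and 199 CPM in dividing cells and 238, 307 and 217 CPM in resting cells (−0.69 ± 0.23, adjusted p = 0.0425 by edgeR), the states not overlapping.

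Both Pdcd1 and Havcr2 lost their calls without library 1 (−0.58 and −0.33) or 2 (−0.51 and −0.75). In Cd8-read cells the values were −0.22 for Pdcd1, −0.06 for Havcr2 and −0.54 for Nr4a2. With drawn resting cells Nr4a2 (−0.95) was called and Pdcd1 (−0.52), Havcr2 (−0.43) and Rgs16 (−0.47) were not. Cd160 (−1.41), Rgs16 (−0.72), Cd27 (−0.63) and Batf (−0.66) were the other 4 that fell. The Cd160 call ended without library 3 (−1.03) and that of Cd27 without library 1 (−0.37) or 2 (−0.69). Those of Rgs16 (−0.64, −0.81 and −0.68) and Batf (−0.85, −0.63 and −0.51) ended without any of libraries 1, 2 and 3. Lag3 (−0.44) and Tox (−0.58) were not called. Batf and Cd27 here, Klrk1 among the cytotoxic genes and Ccl3 among the chemokines are named to complete their lists' counts, after their values were seen.

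Among 27 tested immediate-early and NF-kB feedback genes, 3 fell and 0 rose (median −0.27). In Cd8-read cells Nr4a3 was called lower and Jun higher (1.39, adjusted p = 0.0139 by edgeR; 2.01, 1.37 and 0.99 without libraries 1, 2 and 3, not called in the last), with Jun at 0.85 and not called in all cells. Nr4a3, another receptor-induced nuclear receptor gene, had 51.1, 77.9 and 46.2 CPM in dividing cells and 134, 149 and 134 CPM in resting cells, with no overlap (−1.32 ± 0.27, adjusted p = 6.04e-05 by edgeR). It was called without library 1 (−1.27), 2 (−1.46) and 3 (−1.20). In Cd8-read cells Nr4a3 had 57.5, 79.5 and 44.5 CPM in dividing cells and 144, 152 and 138 CPM in resting cells, a fold change near that of all cells (−1.30 ± 0.30, adjusted p = 0.00692 by edgeR). There it was called without library 2 (−1.45) and not without library 1 (−1.30) or 3 (−1.16). Fosl2 (−0.84) and Tnfaip3 (−0.65) fell too. Their calls ended without library 1 (−0.73 and −0.40), that of Fosl2 without library 3 (−0.75) and that of Tnfaip3 without library 2 (−0.62). Against drawn resting cells Nr4a3 (−1.23) was called and Fosl2 (−0.55) and Tnfaip3 (−0.45) were not.

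Cytoskeletal and activation proteins held 4 genes that rose and 1 that fell among 24 tested (median 0.13). Vim, vimentin, had 1560.2, 2363 and 1967 CPM in dividing cells and 701, 1208 and 1380.2 CPM in resting cells, with no overlap (0.88 ± 0.19, adjusted p = 0.000261 by edgeR). Crip1 (0.79), Tagln2 (0.75) and Emp3 (0.63) rose as well. In Cd8-read cells, which leave out the cells with Cd4 UMIs, none of the 4 was called (Vim 0.58, Crip1 0.27, Tagln2 0.48, Emp3 0.50), and with drawn resting cells Emp3 was not (0.60). Without library 1 (Vim 0.72, Crip1 0.61, Tagln2 0.45, Emp3 0.61) or library 2 (0.82, 0.87, 0.85 and 0.54) none was called, and Emp3 was not without library 3 (0.74).

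Lgals3, galectin-3, went the other way, at 149, 318 and 285 CPM in dividing cells and 356, 786 and 518 CPM in resting cells (−1.14 ± 0.21, adjusted p = 5.69e-06 by edgeR). The states do not overlap and the call held without library 1 (−1.08), 2 (−1.08) and 3 (−1.24). In Cd8-read cells Lgals3 was at −0.87 (adjusted p = 0.0183 by edgeR), with −0.88, −0.81 and −0.93 as libraries 1, 2 and 3 were left out, called without library 3 alone.

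Of 23 tested residency genes 3 were higher and 3 lower (median −0.05), and 0 of 21 were called in Cd8-read cells. Cxcr6, the receptor for Cxcl16, had 366, 811 and 779 CPM in dividing cells and 765, 1235 and 1395 CPM in resting cells (−0.84 ± 0.20, adjusted p = 0.000815 by edgeR), and was not called without library 1 (−0.74) or 2 (−0.97). The integrin gene Itgb1 had 321, 292 and 601 CPM in dividing cells and 199.7, 209.9 and 327 CPM in resting cells (0.70 ± 0.21, adjusted p = 0.0222 by edgeR), and was not called without library 1 (0.70), 2 (0.77) or 3 (0.63). Ahr (1.11) and the integrin gene Itgb7 (0.86) rose, without a call when library 2 (0.93 and 0.81) or 3 (0.77 and 0.70) was left out, and stood at −0.27 and −0.06 in Cd8-read cells. Crtam (−1.33) and Rgs2 (−0.73) fell, without a call when library 1 was left out (−0.76 and −0.41), and for Rgs2 also library 3 (−0.60). Set against drawn resting cells, Itgb1 (0.60), Itgb7 (0.87) and Rgs2 (−0.53) were not called.

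Of 16 naive and memory genes tested 1 was higher and 1, Xcl1, lower. Ccr7, the lymph node homing receptor, was called (1.48) at 61.5, 0 and 345 CPM in dividing cells and 38.3, 30.3 and 39.0 CPM in resting cells, and was at 0.26 without library 3. With drawn resting cells Ccr7 (1.01) was not called. Tcf7, the factor TCF-1 of stem-like and naive T cells, was not called over all cells (−0.57, adjusted p = 0.454 by edgeR). In Cd8-read cells it had 16 dividing and 132 resting UMIs, at 22.7, 0 and 16.7 CPM in dividing cells and 85.2, 26.7 and 39.9 CPM in resting cells (−1.87 ± 0.45, adjusted p = 0.011 by edgeR), and was not called without library 1 (−1.79).

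Of 23 nucleotide and one-carbon genes 4 rose and 0 fell (Dck, Dctpp1, Mthfd2 and Dtymk, 0.95 to 1.60, median of the list 0.52), and 0 of 23 were called in Cd8-read cells. Without library 1 all 4 calls ended (1.56, 0.47, 1.21 and 0.23), and that of Mthfd2 also without library 2 (0.77). Against drawn resting cells Dctpp1 (1.05), Mthfd2 (0.98) and Dtymk (0.77) were not called, and Dck was not tested. Of 29 ribosome biogenesis genes the nuclear transport GTPase gene Ran alone rose (0.86), and not without library 1 (0.55) or 2 (1.01) or in Cd8-read cells (0.69). Glycolysis (16 tested, median 0.15), the nuclear-coded respiratory chain (74, 0.03), proteasome (38, 0.16), ribosomal proteins (80, −0.24) and MHC class I (18, −0.05) had 0 called genes in either direction. Of 26 interferon-induced genes Ifi27l2a rose (0.88), and not without library 1 (0.94) or 2 (0.38) or in Cd8-read cells (0.26). Single calls among these 29 and 26 genes are not read as a result about the lists, since 4.21% of all tested genes were higher. In the interleukin 2 and survival list Socs2 rose (1.26), but not without library 3 (0.99), and Bcl2a1b (−0.76) and Pim2 (−1.36) fell among 24 tested. Socs2 had 0 dividing UMIs in library 2 and was not tested without library 1. Cd8-read cells held 11 of its 79 dividing UMIs, and it was not tested there. Its Cd8-read level was lower in dividing cells of each library, at 19.2, 0 and 0 CPM against 21.6, 10.7 and 9.70 CPM in resting cells. Without library 1, 2 or 3 Pim2 was at −1.46, −1.19 and −1.54, not called, and Bcl2a1b, whose reads can be shared with its copies, ended without library 1 (−0.79) or 2 (−0.64).

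**Figure D5:**
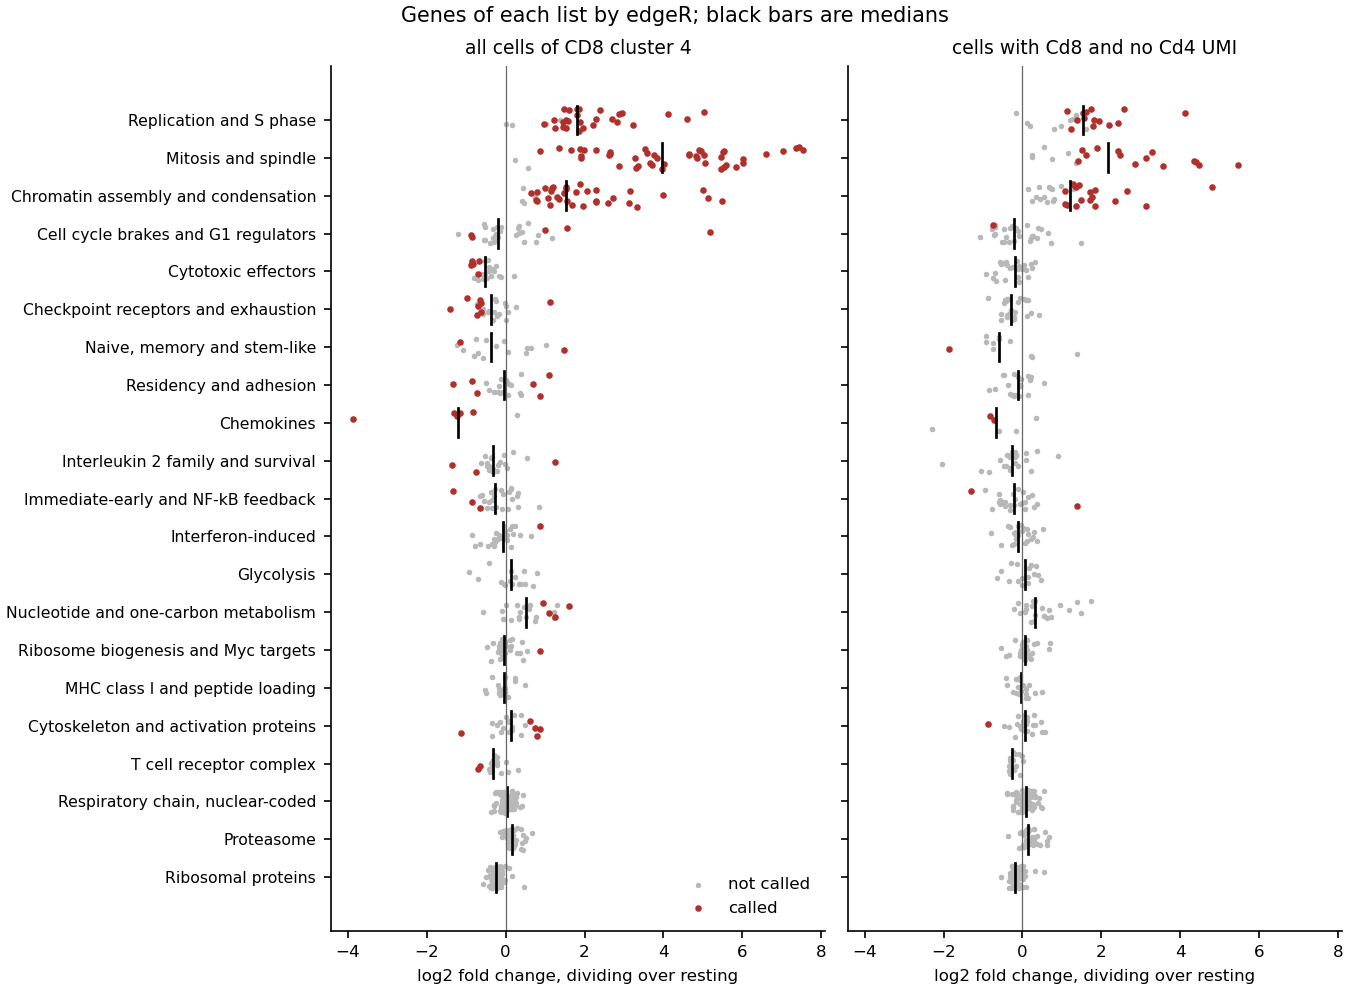
Log2 fold change of dividing over resting cells for each tested gene of 21 lists (rows), in all cells of the cluster (left) and in Cd8-read cells (right). Red points passed an adjusted p of 0.05 by edgeR and black bars are medians. The 3 division lists lie to the right, and the chemokine median of −1.19 in all cells is −0.67 in Cd8-read cells.

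Of the 110 genes lower in dividing cells, 103 were tested in Cd8-read cells. All 103 remained below 0, 88 lay nearer to 0, and 12 were called there. Their median was −0.74 in Cd8-read cells and −0.99 in all cells. The 13 genes called lower in Cd8-read cells are Zbtb4, Tcf7, Lilr4b, Gna15, Nr4a3, Rnf19a, Smpdl3a, Lgals3, Ccl4, Shisa5, Ltb, Btg1 and Ccl5, and 0 of the 13 kept the call in every fit that left out a library. Of the 110 in all cells, 4 did, namely Nr4a3, Ccl4, Lgals3 and Lilr4b, whose reads can be shared with near-identical copies. Levels did not overlap between the states for 54 of the 110, while 4.93% of all 7246 genes outside the division lists had dividing libraries all below resting ones. The 110 were called on these same levels, so this count adds no support. Zbtb4, a zinc finger repressor gene, had 13.2, 13.0 and 3.56 CPM in dividing cells and 47.6, 31.5 and 21.9 CPM in resting cells (−1.84 ± 0.44, adjusted p = 0.00103 by edgeR). In Cd8-read cells it stood at −2.24, and without library 1 it was not called in all cells (−1.84).

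Dividing cells were 28.9%, 8.73% and 16.5% of cluster 4 in libraries 1, 2 and 3 (mean 18.1 ± 10.2%, SD, n = 3). Exact 95% intervals were 25.2% to 32.9%, 5.42% to 13.2% and 12.3% to 21.5%. In the 6194 other cells labelled Cd4, Cd8 or Treg the mean was 2.22 ± 0.79%. The other CD8 cluster, cluster 3, had 1.89 ± 0.064%, and Treg cluster 2 had 1.44 ± 1.43%. Cluster 4 held 66.9%, 52.6% and 46.9% of all dividing cells with these labels. Clusters were drawn from gene levels that may include division genes, so these shares are a description without a test. Thinned to 1000 UMIs per cell, the means were 7.22% in cluster 4 and 0.452% in the other T cells.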

How the data were processed

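Raw UMI counts per gene and cell were deposited by the authors, with a table of library, cluster, cell class, cell cycle phase, phase scores and mitochondrial percent for each cell; the score and percent columns, as deposited, set no result here. Cell Ranger 5.0.1, Seurat 4.0 and mm10 are named in the submitters' processing notes, and filters on cells are not given in the sources used here. UMI totals equalled the deposited count column in all 11640 cells. Counts were summed per library and state (155522 to 1188306 UMIs) and tested with edgeR 4.0.16 in R 4.3.3 (quasi-likelihood test, TMM factors, its filter on low counts, library as block, Benjamini-Hochberg adjusted p under 0.05), leaving out the 4 rule genes. The code was tested on simulated data. Same-library sums deviated together (r = 0.536, 0.437 and 0.670 over 7361 genes), and both states come from the same library. Doublets (scrublet in scanpy 1.11.5) numbered 84, of which 1 was dividing and 0 resting, and were kept. Intervals and floors cover counting error only.

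Members and gene lists were chosen with earlier results of these data known. Named genes are preset genes, up to 4 genes per list and direction with the smallest adjusted p, and the 10 called genes at each end outside the division lists. The alternatives are given in the closing section, with DESeq2 1.42.0 and limma 3.58.1 among them. A gene that this rule picks is not reported here.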

Additional observations from a re-analysis of the deposited data

How the results depend on the processing

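With all cells, 310 genes were higher and 110 lower in dividing cells. DESeq2 gave 162 and 20, library totals 52 lower, resting cells with 0 or 1 UMI 62 lower, and resting cells drawn to match on UMIs, incompletely in library 1, 114 and 26 of 3407 genes tested. Leaving out a library gave 129 to 339 higher and 20 to 56 lower. In Cd8-read cells, added after seeing the data, 78 were higher and 13 lower, with 21, 160 and 85 higher and 5, 7 and 17 lower without libraries 1, 2 and 3. Both counts stayed within 1.5 times under RLE factors, TMM without the division lists, no filter on low counts, limma-voom, 3 or more UMIs and no doublets.

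Without the replicate block, which pairs the states by library, 114 genes were higher and 0 lower by edgeR (442 in either direction at an unadjusted p under 0.05).

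The share of dividing cells in cluster 4 was 35.6% at 1 or more UMIs and 7.22% after thinning to 1000 UMIs. Signs turned for Gzma as a library was left out (−3.89 to 1.25), with limma-voom (0.10) and in Cd8-read cells (0.087). They also turned for Tnf at 3 or more UMIs (−0.0014) Myc as a library was left out (−0.055 to 0.43) and Cd4 without replicate 3 (−0.03), and in Cd8-read cells for Ifng (0.038), Klf2 (−0.77), Tnfrsf4 (−0.12), Itgb7 (−0.065), Ahr (−0.27) and Ikzf2 (−0.088). The cause was not tested. Library 2 has 20 dividing cells, and a fit without a library rests on 4 sums. The interaction with other T cells was not run, since library 2 has 18 dividing cells there, under the 20 set for that test. The Cd8-read fit and that at 3 or more UMIs, with 15 and 9 dividing cells in library 2, fall under that number too.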
